A study of Sus scrofa with 2 samples.

Results

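The respiratory chain of the inner mitochondrial membrane was examined in brain and liver of the Rongchang pig, a Chinese domestic breed of Sus scrofa. Rows of the gene table were taken by their annotated product, which had to name NADH dehydrogenase [ubiquinone], succinate dehydrogenase, cytochrome b-c1, a cytochrome c oxidase subunit or an ATP synthase subunit, and the 13 protein-coding rows of the mitochondrial chromosome were added. This gave 71 rows of 21817, of which 58 are nuclear and 13 mitochondrial. One RNA-seq library per tissue was analysed, with 23796843 counts from brain and 31724498 from liver. Both tissues carry the same breed label, and the labels give no age, sex, brain region or number of animals. The library titles give both libraries the same lane and barcode. With 1 library per tissue there was no replicate check and no test between tissues, so every difference below describes these libraries, and every interval covers counting error only.

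The respiratory chain passes electrons from NADH, through complex I, and from succinate, through complex II, to coenzyme Q. Complex III hands them on to cytochrome c and complex IV passes them to oxygen, and the proton gradient built on the way drives ATP synthase, called complex V. Complexes I, III, IV and V are assembled from subunits of both genomes, whereas complex II is encoded in the nucleus alone. Brain relies on this chain for the ATP that maintains ion gradients and signalling. Liver uses it for the cost of biosynthesis and, through other dehydrogenases that feed coenzyme Q, for fatty acid oxidation.

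Levels are given as scaled CPM, which are counts per 1000000 after scaling with TMM, a method that lines up the libraries on the genes in the middle of the distribution. One scaled CPM equalled 34.9 counts in brain and 21.6 counts in liver. The log2 ratio is brain over liver, with a pseudocount of 1 scaled CPM, so that negative values are lower in brain. The gene lengths in the table include introns for nuclear genes, and levels per kb are therefore compared between genes only among the intronless mitochondrial rows. Counts of different genes set side by side elsewhere are not corrected for length. The tissue labels were checked against a list of marker genes for each cell type. The 5 neuronal markers summed to 4620 scaled CPM in brain and 11.7 in liver, 4 astrocyte markers to 914 in brain and 13.8 in liver, 4 oligodendrocyte markers to 2706 in brain and 29.8 in liver, and 5 hepatocyte markers to 280 in brain and 298000 in liver. Albumin alone took 5966654 of the liver counts. The 3 erythroid markers summed to 89.2 scaled CPM in brain and 282 in liver, and their part in the differences below was not tested.

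Respiratory chain rows differed little between brain and liver compared with genes in general, and most of them lay on the liver side of the transcriptome's middle. Of the 71 rows, 61 reached 1 scaled CPM in at least 1 library, which were 48 nuclear rows and all 13 mitochondrial rows. Among these 61, 0 were higher in brain by 4-fold or more and 1 was higher in liver, the complex II subunit SDHC. Over all 15572 genes that passed the same filter, 14.6% were higher in brain and 11.3% higher in liver by 4-fold or more, 26.0% in either direction. At 2-fold, 0 members were higher in brain and 11 in liver, against 27.5% of all genes higher in brain and 24.4% higher in liver, 51.9% in either direction. That balance depends on the scaling. With plain library size 20 members were higher in brain by 2-fold and 1 in liver, against 49.2% of all genes higher in brain and 12.2% higher in liver. When the 50 highest genes were left out of the library size, 1 member was higher in brain by 2-fold and 6 in liver, against 35.1% of all genes higher in brain and 18.2% higher in liver. Without the pseudocount 1 member, NDUFAF4, was also past 2-fold in brain with TMM. The log2 ratios of the members ran from -2.33 to 0.98 with quartiles of -0.80 and -0.01, while the quartiles of all genes were -0.97 and 1.13. Bulk tissue was sequenced, so fewer cells of a type and less RNA per cell cannot be told apart.

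The middle of the members stood below the middle of all genes under every scaling, although its sign did not hold. With TMM the members had a median log2 ratio of -0.45 and all genes one of 0.02. With plain library size the members had 0.64 and all genes 0.97, and with a library size that leaves out the 50 highest genes the members had -0.01 and all genes 0.41. Each scaling shifts all genes together, and plain library size added 1.11 to every log2 ratio before the pseudocount. Directions are therefore given against the median of all genes. By that measure 41 of the 61 members were on the liver side under all 4 scalings and 14 on the brain side. The other 6 (ATP6, COX5A, NDUFA1, NDUFA12, NDUFS5 and SDHAF1) lay close to the median and changed side. Since the shift also falls on the median, a member can change side only through the pseudocount. Agreement of the 4 scalings on a side, here and below, is therefore no separate check of it.

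**Figure D1:**
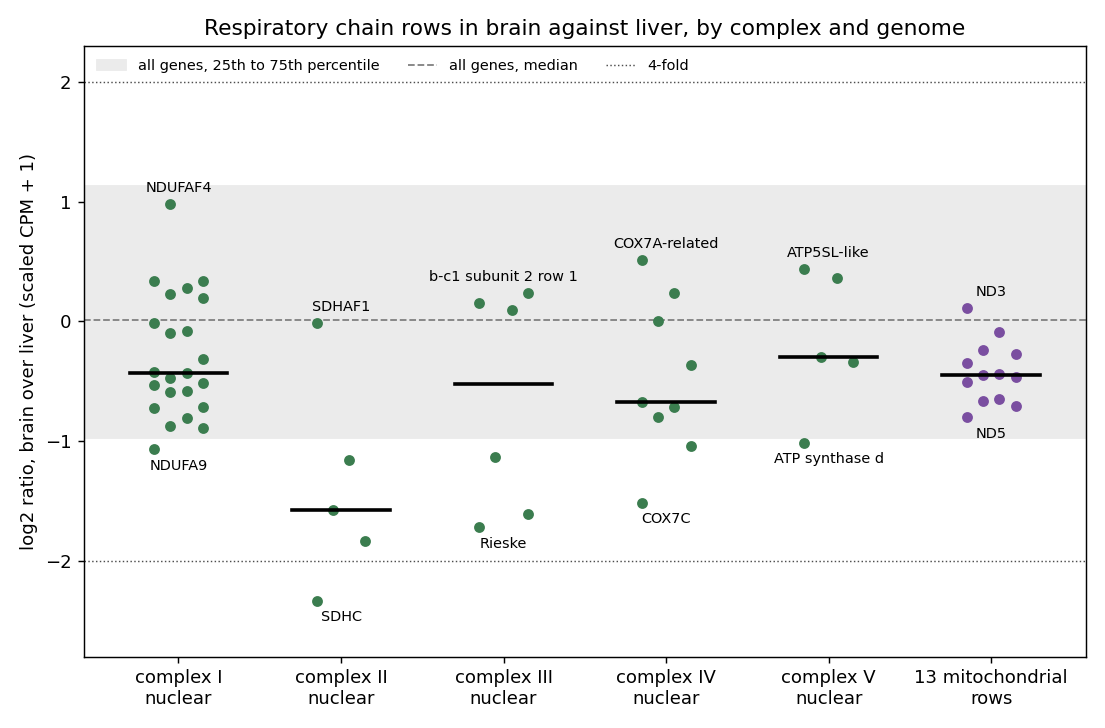
Log2 ratio of brain over liver for the 61 rows that reached 1 scaled CPM, one point per row, with nuclear rows split by complex and the 13 mitochondrial rows in the last column. Black bars are group medians, the grey band spans the 25th to 75th percentile of all genes, and the dashed line is their median of 0.02. The complex II median of -1.58 lies below the other bars, SDHC at -2.33 is the one point past 4-fold, and the mitochondrial rows stay between -0.80 and 0.11. With plain library size all points move up together, by up to 1.11.

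By complex, the nuclear rows that passed had median log2 ratios of -0.43 for complex I (23 of 27 rows), -1.58 for complex II (5 of 5), -0.52 for complex III (6 of 6), -0.67 for complex IV (9 of 13) and -0.30 for complex V (5 of 7). The complex V value rests mostly on ATP5S and related rows. Its subunits alone had a median of -0.68 (2 rows). With subunit rows of other product names added, complex V gave -0.74 (20 rows). Complex II had the lowest median, and its distance of -1.15 from complex I stayed between -1.08 and -1.38 under all settings tried. A change of scaling can move that distance only through the pseudocount. The complexes can also be compared without any scaling, by counts of one complex per 100 counts of complex I nuclear subunits. Complex II gave 16.3 (95% exact interval 15.98 to 16.63) in brain and 41.8 (41.14 to 42.41) in liver, a 2.56-fold higher proportion in liver. Complex IV gave 60.4 in brain and 88.8 in liver, complex III gave 20.1 in brain and 24.3 in liver, and complex V gave 8.59 in brain and 9.17 in liver. The liver proportion was higher by 1.47-fold for complex IV, 1.21-fold for complex III and 1.07-fold for complex V. The small difference of complex V did not hold: with rows of doubtful annotated span left out, as described for NDUFA2, it gave 12.3 in brain and 12.2 in liver. Without such rows complex III gave 10.5 in brain and 20.4 in liver, a 1.93-fold higher proportion in liver. The complex III median was then -1.37, near the -1.58 of complex II. All 58 nuclear rows together took 0.638% of the brain library and 0.485% of the liver library. The order of these shares depends on the total they are taken of, since outside the 50 highest genes the nuclear rows held 0.847% in brain and 1.01% in liver.

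**Figure D2:**
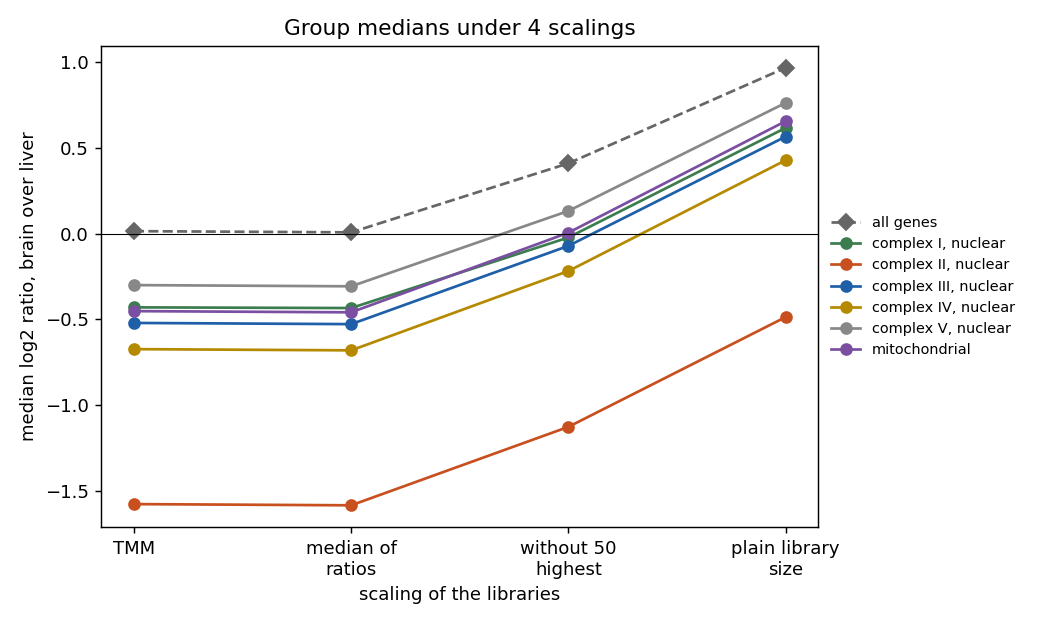
Median log2 ratio of brain over liver for each group of rows (coloured lines) and for all genes (dashed line) under 4 scalings of the libraries. Each scaling shifts all genes together, so the lines run almost in parallel by construction. All group medians lie below that of all genes under each scaling, whereas the sign of every group but complex II changes along the axis.

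Complex II, or succinate dehydrogenase, oxidises succinate in the citric acid cycle and is the one complex with no mitochondrial gene. SDHC, a membrane anchor that binds haem b and coenzyme Q, had 3054 counts in brain and 9596 in liver, equal to 87.4 scaled CPM in brain and 444 in liver. Its brain over liver ratio was 0.197 (95% interval 0.189 to 0.205), which is 5.08-fold higher in liver. That is the furthest of the 61 rows from equality with TMM, and the log2 ratio of -2.33 became -1.23 when scaled by plain library size and -1.88 once the 50 highest genes were left out of it, both short of 4-fold. SDHB, the iron-sulfur subunit that carries electrons from the flavin to the membrane, had 2658 counts in brain and 5906 in liver (at 76.1 scaled CPM in brain and 273 in liver, log2 ratio -1.83). SDHA, the flavoprotein that oxidises succinate, had 5744 counts in brain and 7951 in liver (at 164 scaled CPM in brain and 368 in liver, log2 ratio -1.16). All 3 subunits were lower in brain under each of the 4 scalings, SDHA only by a log2 ratio of -0.05 with plain library size.

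The assembly factors of complex II were split. SDHAF2, which helps attach the flavin to SDHA, had 1413 counts in brain and 2653 in liver (at 40.4 scaled CPM in brain and 123 in liver, log2 ratio -1.58), close to the subunits. SDHAF1, which guides the iron-sulfur clusters into SDHB, had 476 counts in brain and 297 in liver (at 13.6 scaled CPM in brain and 13.7 in liver, log2 ratio -0.01). It sat at the median of all genes. Set against the complex I subunit NDUFV1, SDHC gave 62.3 counts per 100 NDUFV1 counts in brain and 211 in liver, a 3.39-fold difference that no scaling can alter. No row annotated as the remaining anchor subunit, SDHD, was among the members.

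Complex I takes electrons from NADH through a flavin and a chain of iron-sulfur clusters, and its many accessory subunits surround that core. Of its 27 nuclear rows, 23 passed. Of these, 17 had negative log2 ratios with TMM and 6 positive ones. By 2-fold, 1 was higher in liver and 0 in brain, against 24.4% of all genes higher in liver and 27.5% higher in brain. The core subunits of the electron path lay on both sides of the median of all genes. NDUFV1, which binds NADH and the flavin, had 4900 counts in brain and 4545 in liver (at 140 scaled CPM in brain and 210 in liver, log2 ratio -0.58). NDUFS8, an iron-sulfur subunit further along the path, had 3532 counts in brain and 3129 in liver (at 101 scaled CPM in brain and 145 in liver, log2 ratio -0.52). NDUFS7, which holds the last cluster before coenzyme Q, had 3946 counts in brain and 1923 in liver (at 113 scaled CPM in brain and 89.0 in liver, log2 ratio 0.34). NDUFV1 and NDUFS8 were on the liver side of the median of all genes and NDUFS7 on the brain side, under all 4 scalings.

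Among the accessory subunits of complex I, NDUFA9 lay furthest to the liver side, with 3388 counts in brain and 4414 in liver (at 97.0 scaled CPM in brain and 204 in liver, log2 ratio -1.07). It binds NADPH near the joint of the matrix and membrane arms. NDUFB11 and NDUFA10, accessory subunits of the membrane arm, followed at -0.89 and -0.88. On the brain side stood NDUFA3 (594 counts in brain and 287 in liver, log2 ratio 0.33), NDUFA7 (587 in brain and 296 in liver, 0.28) and NDUFB1 (1082 in brain and 568 in liver, 0.23). All of these were on the brain side of the median of all genes under the 4 scalings. NDUFA2 had 398 scaled CPM in brain and 347 in liver, NDUFS5 had 225 in brain and 241 in liver, and NDUFA10 had 144 in brain and 265 in liver. NDUFA2 was thus on the brain side of the median of all genes and NDUFA10 on the liver side under all 4 scalings, while NDUFS5 changed side. The highest log2 ratio of all members, 0.98, belonged to the assembly factor NDUFAF4, with 193 counts in brain and 50 in liver and a brain over liver ratio of 2.39 (95% interval 1.74 to 3.33).

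The NDUFA2 row needs care. It is annotated over 31018 bp in the deposited table, while the gene spans 2127 bp in the RefSeq annotation of the assembly Sscrofa11.1. The genes that follow it in that assembly, IK, WDR55 and DND1, have no row of their own in the table. How far they add to the 13900 brain counts and 7490 liver counts was not tested. The genes that precede it, TMCO6 and CD14, have 1 row each. Across the 48 nuclear members with a RefSeq span, 37 agreed within 1.5 times, and 9 differed by more than 2 times (NDUFA2, NDUFB1, NDUFB3, NDUFB7, NDUFS4, the b-c1 subunit 6 and 10 rows, ATP5SL and COX7B2). With such rows left out, complex II gave 23.3 counts per 100 complex I counts in brain and 55.6 in liver, still 2.38-fold higher in liver. NDUFA6 could not be placed, since 3 low rows bear its product name. Those among the members had 29 and 27 counts in brain and 10 and 30 in liver, and reads of near-identical copies may be shared among them.

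**Figure D3:**
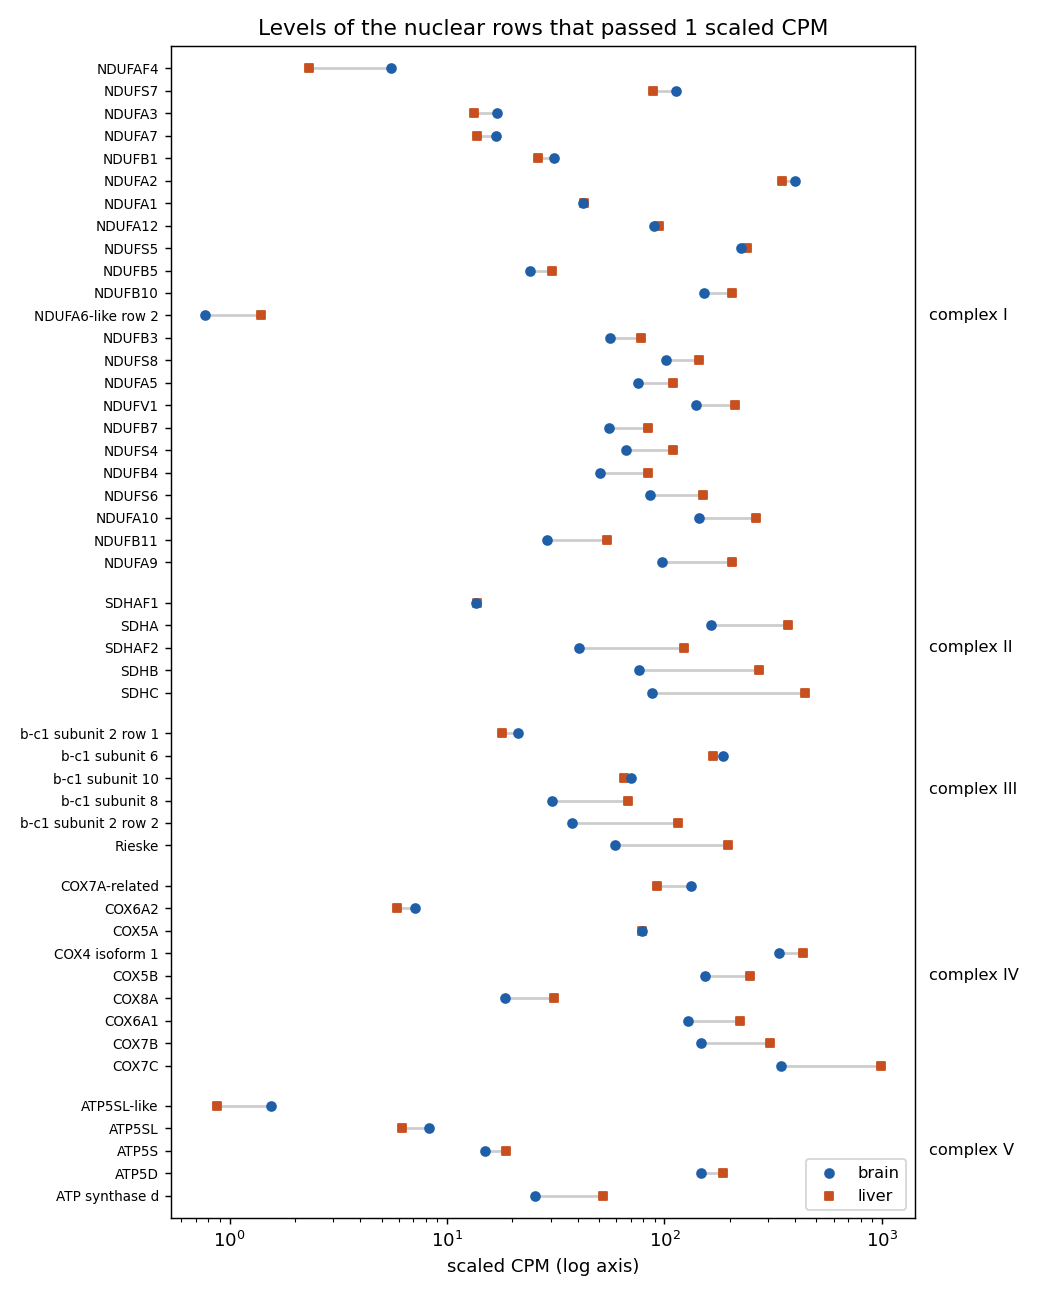
Scaled CPM on a log axis in brain (blue circles) and liver (orange squares) for the 48 nuclear rows that passed, ordered by complex and then by falling log2 ratio. The longest gaps belong to SDHC (87.4 in brain and 444 in liver), SDHB and the Rieske protein, and the small gaps on the brain side to rows such as NDUFS7 (113 in brain and 89.0 in liver). With plain library size each gap shifts toward brain by the same factor.

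Complex III moves electrons from coenzyme Q to cytochrome c, and the selected rows included 3 on the liver side and 3 on the brain side of the median of all genes. The row annotated as the Rieske iron-sulfur protein, which takes the first electron from coenzyme Q, had 2062 counts in brain and 4247 in liver (at 59.0 scaled CPM in brain and 197 in liver, log2 ratio -1.72). Its brain over liver ratio was 0.300 (95% interval 0.285 to 0.316). Subunit 8, a small coenzyme Q-binding protein, had 1061 counts in brain and 1465 in liver (log2 ratio -1.13). These rows were lower in brain under every scaling, as was one of the rows for core subunit 2. In contrast, the row of subunit 6, an acidic hinge protein at cytochrome c1, had 6525 counts in brain and 3621 in liver (at 187 scaled CPM in brain and 168 in liver, log2 ratio 0.16), and that of subunit 10 had 2439 counts in brain and 1413 in liver (at 69.8 scaled CPM in brain and 65.4 in liver, log2 ratio 0.09).

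The brain-side rows of complex III are also those with annotation problems. The subunit 10 row is 5.34 times and the subunit 6 row 2.02 times as long as its RefSeq span. Core subunit 2, a scaffold protein of the complex, has a pair of rows with PDZD9 and VWA3A between them, one with 742 counts in brain and 387 in liver (log2 ratio 0.23) and the other with 1307 in brain and 2506 in liver (log2 ratio -1.61). The smaller row gave 56.8 counts per 100 of the larger in brain and 15.4 in liver, a 3.68-fold difference between rows of a single product name. With the rows of doubtful span left out, the median of complex III was -1.37 in place of -0.52, and complex III gave 10.5 counts per 100 complex I counts in brain and 20.4 in liver.

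Complex IV, cytochrome c oxidase, reduces oxygen to water with mitochondrially encoded catalytic subunits, and its nuclear subunits surround and regulate that core. The row annotated as subunit 4 isoform 1, the regulatory subunit that binds ATP, had 11719 counts in brain and 9328 in liver (at 335 scaled CPM in brain and 432 in liver, log2 ratio -0.36). COX7C, a small membrane subunit, had 12060 counts in brain and 21331 in liver (at 345 scaled CPM in brain and 987 in liver, log2 ratio -1.51). COX7C thus gave 103 counts per 100 of the subunit 4 row in brain and 229 in liver, a 2.22-fold difference that does not depend on the scaling. The subunit 4 row is 13159 bp long against a RefSeq span of 6603 bp, just under the limit for a doubtful span. How far other genes add to its counts was not tested. COX7B, another small membrane subunit, had 5145 counts in brain and 6583 in liver (log2 ratio -1.04). COX6A1, COX8A and COX5B lay between -0.80 and -0.67, and COX5A at 0.00. Thus among the selected rows COX7C and COX7B led on the liver side, and the other selected subunits on that side stayed within 2-fold.

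Some subunits of complex IV exist as tissue isoforms, and the heart and skeletal muscle forms had few counts in both libraries. COX6A2, the muscle form of subunit 6A, had 248 counts in brain and 127 in liver, against 4467 in brain and 4809 in liver for the widespread form COX6A1. That is 5.55 COX6A2 counts per 100 COX6A1 counts (95% interval 4.87 to 6.31) in brain and 2.64 (2.20 to 3.15) in liver. COX7A1, the muscle form of subunit 7A, whose product name falls outside the selection, went the other way. It had 77 counts in brain and 201 in liver (log2 ratio -1.69), further to the liver side than COX7C. Per 100 counts of COX6A1, which is another subunit, that is 1.72 (95% interval 1.36 to 2.16) in brain and 4.18 (3.61 to 4.81) in liver. The 4 muscle markers with a row summed to 19.3 scaled CPM in brain and 10.7 in liver, and their part in these values was not tested. The row of the 7A-related protein, which joins complexes III and IV into supercomplexes, had 4630 counts in brain and 2003 in liver (at 133 scaled CPM in brain and 92.7 in liver, log2 ratio 0.51), the highest ratio in the group. COX7B2 and COX8C, known from testis, had 1 count in each library.

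Complex V makes ATP as protons turn its rotor. Only 7 nuclear rows carry the selected product name, 5 of them passed, and 3 of those belong to the coupling factor B family of ATP5S (ATP5S, ATP5SL and an ATP5SL-like row) and not to the rotor or its catalytic head. The row annotated as the peripheral stalk subunit d had 883 counts in brain and 1126 in liver (at 25.3 scaled CPM in brain and 52.1 in liver, log2 ratio -1.02). That row is short, with 501 bp in the table and 513 bp in RefSeq, so the check of spans cannot flag it. Whether it is the gene itself or a copy of it was not tested. ATP5D, the delta subunit of the central stalk, had 5130 counts in brain and 4015 in liver (at 147 scaled CPM in brain and 186 in liver, log2 ratio -0.34). ATP5S stood at -0.30, ATP5SL at 0.36 and the ATP5SL-like row, with 54 counts in brain and 19 in liver, at 0.44. The rows of subunit d and ATP5D were on the liver side of the median of all genes, and ATP5SL and its like on the brain side, under all 4 scalings.

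The product names leave out many subunits that the table lists under other words, and 40 such rows were gathered after their values had been seen. Of these, 37 passed and 0 were higher by 4-fold in either tissue, against 26.0% of all genes in either direction. By 2-fold, 8 were higher in liver and 0 in brain, against 24.4% of all genes higher in liver and 27.5% higher in brain. The median log2 ratio of the 37 rows was -0.64. The 15 rows of complex V had a median of -0.77, and all 15 were negative with TMM, 6 of them also with plain library size. ATP5A1, the alpha subunit of the catalytic head, had 15470 counts in brain and 25674 in liver (log2 ratio -1.42). ATP5B, the catalytic beta subunit, had 12521 counts in brain and 14088 in liver (log2 ratio -0.86). Of the 3 genes for the c ring that rotates with the protons, ATP5G3 had a log2 ratio of -1.28, ATP5G2 of -0.74 and ATP5G1 of -0.14. The ATP5G2 value rests on 42 counts in brain and 58 in liver, near the filter, against 2522 in brain and 3827 in liver for ATP5G3. With these rows added, complex V gave 75.5 counts per 100 complex I counts in brain and 119 in liver, a 1.58-fold higher proportion in liver in place of 1.07-fold. The complex II proportion moved less, to 11.1 in brain and 28.1 in liver, 2.54-fold apart.

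Elsewhere among the added rows, NDUFS1, the largest iron-sulfur subunit of complex I, had 2463 counts in brain and 3807 in liver (log2 ratio -1.31), and NDUFA11, an accessory subunit of the membrane arm, had 715 in brain and 364 in liver (log2 ratio 0.27). Complex I was thus uneven outside the selection as well. Of the 5 added rows of complex III, 4 passed, and they lay between -1.15 and -0.64, in the gap between the selected rows and next to it. Cytochrome c1, the haem protein that reduces cytochrome c, had 849 counts in brain and 995 in liver (log2 ratio -0.90), and UQCRB, a small coenzyme Q-binding subunit, had 1107 in brain and 1331 in liver (log2 ratio -0.94). With them the median of complex III was -0.92 over 10 rows. COX6C, a small membrane subunit of complex IV, had 20825 counts in brain and 15773 in liver (log2 ratio -0.29). NDUFA4, once assigned to complex I and now to complex IV, had 5080 counts in brain and 4729 in liver (log2 ratio -0.59). The alternative forms NDUFA4L2 and COX8H had 2 counts each in brain and 0 in liver, where a count of 0 allows up to 0.139 scaled CPM.

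The 13 mitochondrial rows held far more counts than the nuclear members, which had 151894 counts in brain and 153822 in liver, and they were a larger part of the brain library. They took 2252540 counts, 9.47% of the library (95% Wilson interval 9.45 to 9.48), in brain and 1874767 counts, 5.91% (5.90 to 5.92), in liver. With TMM their median log2 ratio was -0.45, equal to that of the nuclear members to 2 decimals, and with plain library size it was 0.66. Against the nuclear subunit rows, the mitochondrial rows gave 1561 counts per 100 in brain and 1264 in liver, 1.24-fold more in brain. This proportion was nearly level for complex I, with 991 in brain and 1030 in liver, and for complex III, with 1108 in brain and 1130 in liver. It was higher in brain for complex IV, with 2456 in brain and 1735 in liver, and for complex V, with 5927 in brain and 5372 in liver. The proportion of complex III changed direction once the additional subunit rows were counted, with 716 in brain and 655 in liver. With those rows complex I gave 673 in brain and 694 in liver, complex IV gave 1410 in brain and 1163 in liver, and complex V gave 459 in brain and 278 in liver, so that its 1.10-fold difference became 1.65-fold.

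Within the mitochondrial set, COX1 had the largest share of counts, and the proportions of the oxidase subunits hardly differed between tissues. COX1, the catalytic subunit that holds the haems and copper where oxygen is reduced, had 590572 counts in brain and 499351 in liver, 26.2% of the 13 rows in brain and 26.6% in liver. COX2, which receives electrons from cytochrome c, made up 9.53% in brain and 9.62% in liver, and COX3, a structural subunit of the core, 10.5% in brain and 9.91% in liver. Their log2 ratios with TMM lay between -0.45 and -0.34. CYTB, the one mitochondrial subunit of complex III and the site of coenzyme Q oxidation, had 156667 counts in brain and 154056 in liver (log2 ratio -0.67) and made up 6.96% of the set in brain and 8.22% in liver.

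The proton-pumping ND subunits of complex I varied more. ND3, at the joint of the complex, had 79111 counts in brain and 45277 in liver, 3.51% of the set in brain and 2.42% in liver, and was the one mitochondrial row on the brain side under all 4 scalings (log2 ratio 0.11). ND5, a pump at the far end of the membrane arm, had 132407 counts in brain and 142610 in liver, 5.88% of the set in brain and 7.61% in liver (log2 ratio -0.80). ND3 and ND5 were the ends of the range. ND1 made up 5.24% in brain and 4.60% in liver, ND2 5.76% in brain and 5.17% in liver, ND4 7.36% in brain and 7.75% in liver, ND6 2.76% in brain and 2.84% in liver, and ND4L 0.403% in brain and 0.489% in liver. ND1 and ND2, neighbours on the chromosome, had similar log2 ratios of -0.24 and -0.27, while ND4, ND6 and ND4L had -0.51, -0.47 and -0.71.

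ATP6 and ATP8, the mitochondrial subunits of ATP synthase, are neighbours that overlap and share a transcript, yet they did not keep step. ATP6, the proton channel, had 225992 counts in brain and 148629 in liver (log2 ratio -0.09). ATP8, a short membrane subunit, had 131893 counts in brain and 128088 in liver (log2 ratio -0.65). ATP8 thus gave 58.4 counts per 100 ATP6 counts in brain and 86.2 in liver. Reads over the shared bases may be given to either row, to both or to neither, and the rule used is not given in the sources used here. The same holds for ND4L and ND4, and for ND6, which is read from the opposite strand to its neighbours.

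Per kb of row length, ATP8 was the highest of the 13 rows in both libraries, with 646534 counts per kb in brain and 627882 in liver, and COX1 the second, with 382247 in brain and 323205 in liver. ND4L was the lowest, with 30545 counts per kb in brain and 30869 in liver. The order between these ends was similar in the libraries, and the Pearson correlation of log2 counts per kb over the 13 rows was 0.975, given as a description since the rows share chromosome and library. ATP6 had rank 3 in brain and rank 5 in liver, and COX2 rank 4 in brain and rank 3 in liver.

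**Figure D4:**
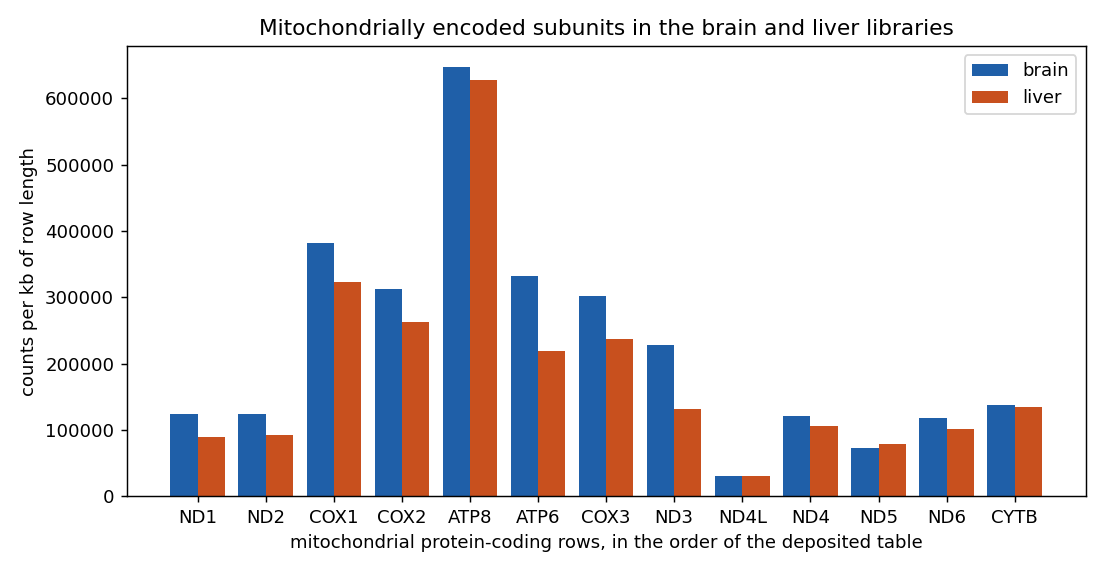
Counts per kb of row length for the 13 mitochondrial protein-coding rows in brain (blue, left) and liver (orange, right), in the order of the deposited table. The bars are raw counts of 1 library each, not scaled for depth, and brain bars are the taller ones for all rows but ND4L and ND5. ATP8 stands highest in both libraries and ND4L lowest, and the gap is widest in relative terms at ND3, with 228645 in brain and 130858 in liver.

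Genes that build or feed the respiratory chain were described by lists chosen by function. Of 12 assembly factors of complex I, 12 passed, and 1 was higher in liver by 4-fold or more with a list median of -0.79, NDUFAF4 being among them. This is near the 11.3% of all genes higher in liver by 4-fold. The called gene, FOXRED1, an oxidoreductase-like factor for complex I assembly, had 367 counts in brain and 4087 in liver (at 10.5 scaled CPM in brain and 189 in liver, log2 ratio -4.05), past 4-fold under all scalings. ECSIT, another factor for complex I, had 1280 counts in brain and 882 in liver (log2 ratio -0.15). The assembly lists of complexes III (3 passed), IV (13 passed of 14) and V (4 passed) held 0 members at 4-fold, with medians of -0.27, -0.60 and -0.51. UQCC1, a factor for complex III, stood at -1.84 and BCS1L, which inserts the Rieske protein, at -0.27. COX17, a copper carrier to complex IV, stood at -1.22 and the assembly factor COA5 at -1.17, and ATPAF1, a chaperone of complex V, at -0.91. ATP5IF1, the inhibitor of reversed ATP synthase, stood at -0.54.

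Of 12 genes for coenzyme Q synthesis and its electron carriers, 12 passed and 2 were higher in liver by 4-fold or more, not far from the 11.3% of all genes. ETFDH, which passes electrons from fatty acid oxidation to coenzyme Q, had 1175 counts in brain and 7523 in liver (at 33.6 scaled CPM in brain and 348 in liver, log2 ratio -3.33). COQ5, a methyltransferase of coenzyme Q synthesis, had 523 counts in brain and 1664 in liver (log2 ratio -2.29). With plain library size ETFDH remained past 4-fold at -2.24 and COQ5 did not at -1.22. Cytochrome c itself, CYCS, had 4678 counts in brain and 3439 in liver (log2 ratio -0.25), close to the subunits of complex I. The list had a median of -0.69.

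Of 22 genes for mitochondrial DNA expression and its control, 20 passed, with a median of -0.68. One was higher in brain by 4-fold or more and 1 in liver, against 14.6% of all genes higher in brain and 11.3% higher in liver. The gene higher in brain was ESRRG, a nuclear receptor that acts on genes of oxidative metabolism, with 1559 counts in brain and 9 in liver (log2 ratio 5.01). Its relative ESRRA, with 368 counts in brain and 1048 in liver (log2 ratio -2.10), was the one higher in liver. The 2 receptors thus lay on opposite sides of the other members. LRPPRC, which stabilises mitochondrial mRNA, stood at -1.01 and SSBP1, which binds single-stranded mitochondrial DNA, at -1.20. In a list of 23 general mitochondrial proteins, all passed with a median of -0.57, and 2 were higher in liver by 4-fold, against 11.3% of all genes, the matrix chaperone HSPD1 (11697 counts in brain and 36076 in liver, log2 ratio -2.32) and its partner HSPE1 (-2.10). The ADP/ATP carrier SLC25A6 had 19799 counts in brain and 11780 in liver (log2 ratio 0.06). ESRRA, HSPD1 and HSPE1 fell short of 4-fold when scaled by plain library size, and CS, the citrate synthase of the citric acid cycle, with 2950 counts in brain and 749 in liver, was past it in brain (log2 ratio 2.34, and 1.26 with TMM).

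The other 10 members stayed below 1 scaled CPM in both libraries. They were the NDUFA4-like, NDUFB8-like, subunit C2-like and first NDUFA6-like rows of complex I, COX7B2, COX8C and both COX7C-like rows of complex IV, and the e-like and f-like rows of ATP synthase. The NDUFA4-like row was counted with complex I by its product name, although NDUFA4 itself is placed in complex IV above. Counts of the 10 rows ran from 1 to 29 in brain and from 0 to 20 in liver. Several bear the product name of an abundant gene and may be copies of it, so that reads could be divided between rows in a way the table does not show.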

How the data were processed

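Frozen brain and liver of Rongchang pigs were extracted with RNAiso Plus and sequenced with standard Illumina libraries, per the labels' protocols. Reads were aligned with TopHat to Sscrofa10.2, also named susScr3, per the submitters' processing notes. The values are raw counts per gene that the authors deposited, read as counts because they are whole numbers with different totals. Not given in the sources used here: counting program, strand setting and treatment of reads with several matches. The gene length deposited by the authors, another value of the table in bp, served for mitochondrial counts per kb and as a check of span.

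Rows were named from the table or by gene number or accession in RefSeq's Sscrofa11.1 gene table, used for names, gene order and spans. Of the 58 nuclear members 33 have a symbol and 25 are called by product. Summing the rows of each symbol gave 21444 genes and joined no members. Counts were scaled by TMM (factors 1.47 for brain and 0.681 for liver; edgeR 4.0.16 in R 4.3.3), and edgeR was used for scaling alone. Genes with 1 scaled CPM in either library entered, and 4-fold on the log2 scale with a pseudocount of 1 was the size rule. Intervals (95%) are exact conditional binomial for ratios and Wilson for shares (SciPy 1.17.1). The calls were tested on simulated data with known folds. The simulated libraries shared the same profile apart from the changed genes, so a difference in composition like that between these tissues was not covered.

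Members and lists were chosen with earlier results of these data known. Named genes are the 13 mitochondrial rows, members at 4-fold, the 3 with the highest mean scaled CPM (not corrected for length) and the highest and lowest ratio per complex, tissue isoforms, and from each list the 2 genes with the highest mean scaled CPM and those at 4-fold. Others were chosen after their values were seen. No genome or sequence table was used here.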

Additional observations from a re-analysis of the deposited data

How the results depend on the processing

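No paired analysis was possible because each tissue has 1 library. Median-of-ratios scaling, a pseudocount of 0.1 and a filter at 5 scaled CPM changed no count of members at 4-fold. They moved no median by more than the median half-width of the counting intervals of its members, a tolerance and not an error of the median. Taking the highest row per symbol could change no value of the members, since no members were joined, and is no check. With plain library size, and with a library size that leaves out the 50 highest genes, 0 members in place of 1 were higher in liver by 4-fold or more; at 2-fold there were 11 and at 8-fold 0. The medians with plain library size were 0.64 for all members, 0.66 mitochondrial, and 0.62, -0.49, 0.57, 0.43 and 0.76 for nuclear complexes I to V. Without the 50 highest genes they were -0.011, 0.006, -0.022, -1.13, -0.071, -0.22 and 0.13 in the same order. A pseudocount of 5 gave -1.49 for complex II and -1.08 for its distance from complex I. With no filter the medians were -0.36 for all members, -0.025 for complex IV and -0.056 for complex V. Subunits alone gave -1.83 for complex II (3 rows), -0.68 for complex V (2 rows) and -1.38 for the distance. Leaving out rows of doubtful span, a setting chosen after seeing the data like the added subunit rows and the 2-fold counts under other scalings, gave -1.37 for complex III (4 rows). The nuclear share was 0.705% in brain and 0.515% in liver of nuclear gene counts, and 0.847% in brain and 1.01% in liver outside the 50 highest genes; the mitochondrial rows have no value there. Beyond these constructions the cause of each shift was not tested. Depth limits the 10 rows under 1 scaled CPM, where 3 counts equal 0.0858 scaled CPM in brain and 0.139 in liver.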
